A study of Mus musculus with 40 samples.

Results

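The genes described are Myc, its family member Mycn, and 7 genes of polyamine synthesis and of the steps next to it: Srm, Sms, Odc1, Amd1, Oaz1, Eif5a and Oat. They are 9 of the 26411 genes in the count tables, and all 9 passed the filter on low counts in both tissues. They were chosen by name, with the E9.5 results of Kat6a-/- and Kat6aE/E embryos in view, so their values in those genotypes are a description and carry no test here. The data were bulk RNA-sequencing counts of 40 mouse libraries that compared loss of the histone acetyltransferases KAT6A and KAT6B with point mutations in each. Whole embryos at E9.5 gave 24 libraries, 4 for each of 6 genotypes, and LSK cells (lineage-negative, SCA-1+, c-KIT+ haematopoietic stem and progenitor cells sorted from E14.5 fetal liver) gave 16 libraries, 4 for each of 4 genotypes.

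All mice were on a C57BL/6 background. The E9.5 genotypes were WT, Kat6a-/- (label allele cfd/cfd, an allele with several exons deleted), Kat6b-/- (label allele dec/dec, likewise), Kat6aE/E (G656E/G656E in the labels), Kat6bE/E (G577E/G577E) and the double point mutant, homozygous for both E alleles. A G-to-E token gives the residue and its position in the protein as the labels number it. Except in the double point mutant, the other Kat6 gene was WT. The alleles were germline alleles, so every cell of the embryo or liver carried them. The LSK genotypes were WT, Kat6aE/E, Kat6bE/E and the double point mutant, and no null LSK library was analysed here. The libraries held 8401990 to 23339359 gene counts at E9.5 and 12270376 to 59216547 in LSK. Levels are given as CPM, each count divided by its TMM-scaled library size and put on a common scale for all libraries, and levels of different genes are compared in CPM per kilobase of gene length.

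MYC and MYCN are transcription factors that bind DNA with MAX, classically at the E-box CACGTG, and drive growth and ribosome production. Polyamines are small cations that bind nucleic acids and are needed by dividing cells, and ODC1, the decarboxylase that opens the pathway, is a textbook target of MYC. ODC1 makes putrescine from ornithine, SRM makes spermidine from putrescine, and SMS makes spermine from spermidine, while AMD1 provides the aminopropyl donor. OAZ1, the antizyme, binds ODC1 and sends it to the proteasome. EIF5A is a translation factor that carries hypusine, an amino acid made from spermidine, and OAT converts ornithine and glutamate semialdehyde into each other.

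Some libraries stood apart. In LSK, Kat6aE/E replicate 2 and double replicates 2, 3 and 4 had 12600 to 13683 genes with at least 1 count, against 16082 to 17647 in the other 12, so 3 of the 4 double LSK libraries were of this kind. These 3 came from 1 litter and double replicate 1 from another, and WT replicates 1 to 3 also shared a litter. The summed level of the erythroid markers in LSK was 1160 CPM in double replicate 1 and 8240 to 14800 CPM in replicates 2 to 4, against 877 to 3640 CPM in WT, 1690 to 5050 CPM in Kat6bE/E and 457 to 6380 CPM in Kat6aE/E. The LSK gate markers summed to 1060 to 1260 CPM in double replicates 2 to 4 and 2060 CPM in replicate 1. They summed to 2020 to 2120 CPM in WT replicates 1 to 3, 1260 CPM in WT replicate 4, 1360 to 2240 CPM in Kat6aE/E, 1120 to 1750 CPM in Kat6bE/E and 236 to 312 CPM in embryos. The markers of lineage-positive blood summed to 177 to 261 CPM in double replicates 2 to 4, 100 CPM in replicate 1, 85.5 to 152 CPM in WT, 85.1 to 142 CPM in Kat6aE/E and 97.2 to 141 CPM in Kat6bE/E, and the T cell markers Cd3e and Cd8a were at 0 in every LSK genotype mean. At E9.5, double replicate 2 stood apart in several members. Xist was above 100 CPM in 3 of 24 E9.5 libraries (Kat6a-/- replicate 2 and Kat6b-/- replicates 2 and 3) and in 5 of 16 LSK libraries. Counts over the whole of Kat6a were 160 to 171 CPM in Kat6a-/- and 169 to 186 CPM in WT. Those of Kat6b were 52.0 to 58.3 CPM in Kat6b-/- and 38.2 to 42.6 CPM in WT. These counts include exons outside the deletions, so they check neither allele.

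Fitted log2 differences come from the linear model that the study's methods state, with a random block for litter and 4 surrogate variables. They are adjusted values. Unadjusted differences of mean log2 CPM are given beside some of them, and the plot of differences from WT shows both for every member. FDR is the Benjamini-Hochberg adjusted p of limma over all genes tested in a comparison (14183 at E9.5 and 13071 in LSK), and a gene is called when it is under 0.05. Bulk libraries cannot tell fewer cells that express a gene from less RNA per cell.

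In WT embryos the members differed widely in level. Eif5a was highest, at 760.7 ± 28.37 CPM per kilobase (SD, n = 4), above 99.7% of the genes tested. Srm (181.2 ± 13.35) and Odc1 (179.6 ± 10.63) came next and did not differ beyond their spread, and Oaz1 (115.8 ± 10.02), Mycn (69.26 ± 5.983) and Oat (47.02 ± 5.131) followed. Amd1 (35.05 ± 2.822) and Myc (32.56 ± 2.921) overlapped, and Sms was lowest at 20.76 ± 0.8302 CPM per kilobase. Mycn was thus the higher of the 2 MYC genes in the whole embryo.

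Promoter sequence is shown for 3 members to place the E-box, the site that MYC dimers recognise. The windows are RefSeq promoters on GRCm38.p6, from 250 bases before to 50 bases after an annotated start, and CACGTG is its own reverse complement. It lies in 2349 of 32851 such windows (7.15%) and in at least 1 window of 2187 of 27025 genes (8.09%). Among the members, Eif5a had it in 3 of 6 windows, of which 2 overlap and share a site, and Sms had it in 1 of 2. The single windows of Mycn, Odc1, Amd1, Oaz1 and Oat had none, and Myc and Srm have no entry. The 250 upstream bases are given 5′ to 3′ with CACGTG in capitals. For Eif5a this is chr11:69921387-69921636 on the minus strand, with the motif starting 74 bases before the start. For Sms it is chrX:157492288-157492537, minus strand, 196 bases before the start. For Oat, the member that was higher in Kat6a mutants, it is chr7:132576399-132576648, minus strand, with no match.
Eif5a: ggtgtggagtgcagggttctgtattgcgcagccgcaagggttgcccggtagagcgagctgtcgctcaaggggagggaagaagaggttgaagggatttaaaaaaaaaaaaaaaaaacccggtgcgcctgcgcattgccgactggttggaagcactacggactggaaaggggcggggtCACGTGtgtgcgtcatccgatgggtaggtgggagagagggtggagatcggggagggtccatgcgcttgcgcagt
Sms: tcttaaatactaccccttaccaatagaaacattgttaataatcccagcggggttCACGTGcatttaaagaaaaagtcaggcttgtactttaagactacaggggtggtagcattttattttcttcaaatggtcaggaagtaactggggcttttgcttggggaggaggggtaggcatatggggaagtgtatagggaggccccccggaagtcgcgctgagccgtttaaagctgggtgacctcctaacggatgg
Oat: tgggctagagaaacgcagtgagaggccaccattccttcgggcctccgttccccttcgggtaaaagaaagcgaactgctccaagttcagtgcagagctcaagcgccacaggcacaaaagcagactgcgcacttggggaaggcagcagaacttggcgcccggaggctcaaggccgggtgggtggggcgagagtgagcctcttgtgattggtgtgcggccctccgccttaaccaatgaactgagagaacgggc
A match is a string of letters and was not tested for binding, and these windows hold no measurement from this series.

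The aminopropyl transferase Srm had the clearest lower level in Kat6aE/E embryos. Its levels were 233.4, 226.5, 236.2 and 266.5 CPM in WT replicates 1 to 4, and 191.2, 180.2, 214.8 and 216.9 CPM in Kat6aE/E. All 4 Kat6aE/E libraries lay below all WT libraries, as did those of 2.62% of all genes tested. The fitted log2 difference was -0.25 (SE 0.038, 95% interval -0.33 to -0.17), or 0.841 times WT. In Kat6a-/- the levels were 245.5, 207.9, 220.0 and 249.0 CPM, which overlapped WT, and the fitted log2 difference was -0.15 (SE 0.039) against -0.06 unadjusted. Within 1 litter, WT replicate 2 had 226.5 CPM and Kat6aE/E replicate 1 had 191.2 CPM. In another, WT replicate 1 had 233.4 CPM and Kat6a-/- replicate 2 had 207.9 CPM. Each pair had the mutant lower. Srm, on chromosome 4 (GRCm39 148675940 to 148681792, plus strand), had 0.0773% of its 66-base transcript windows copied exactly elsewhere in the genome, so its counts are little exposed to shared reads.

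**Figure D1:**
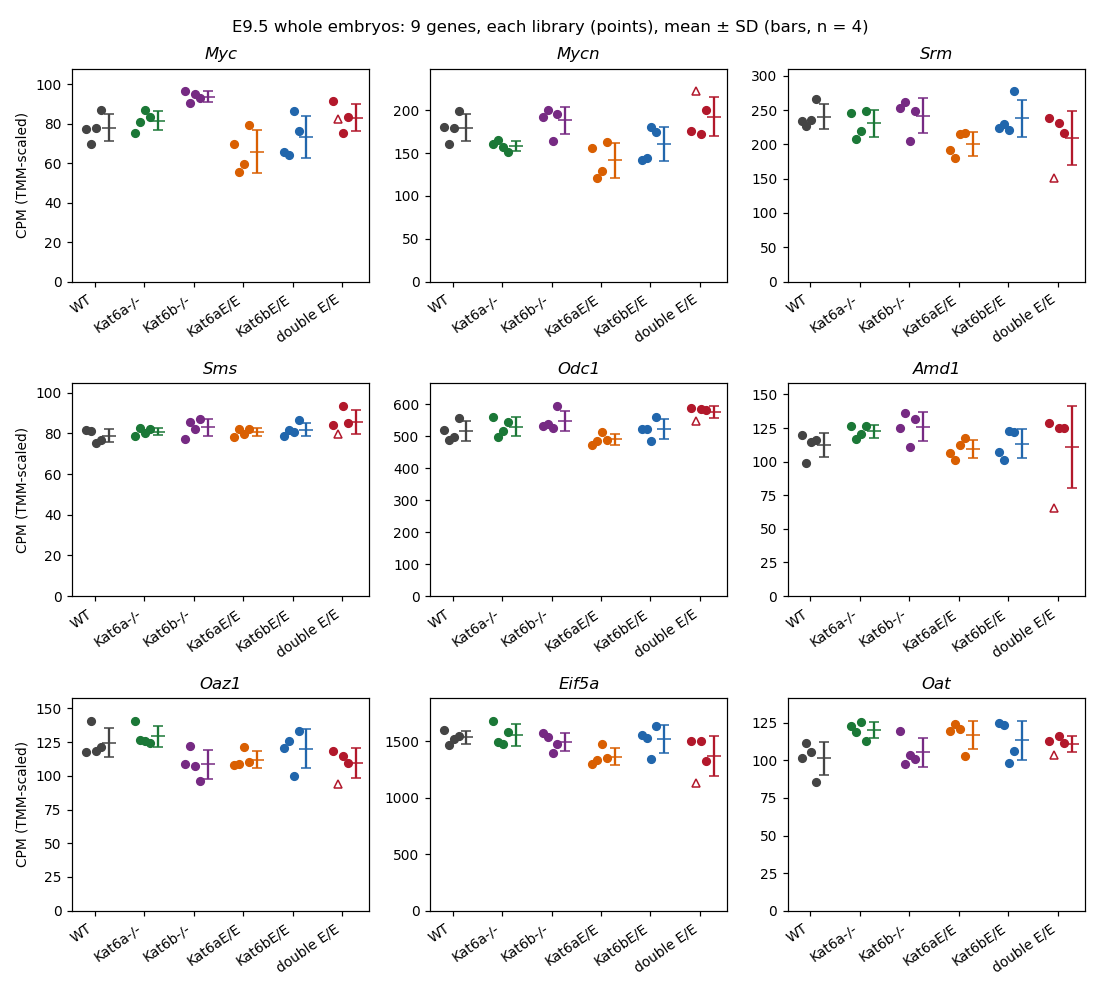
Levels of the 9 genes in whole E9.5 embryos, in CPM after TMM scaling (y axis, 1 panel per gene), by genotype (x axis). Points are libraries, open triangles mark double replicate 2, and bars are the mean ± SD of 4 libraries. All 4 Kat6aE/E libraries lie below the 4 WT libraries for Srm, and all 4 Kat6a-/- libraries lie above WT for Oat.

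The transcription factor genes Mycn and Myc are given next for the 2 Kat6a genotypes. Mycn was at 180.0, 160.9, 179.4 and 198.9 CPM in WT and at 155.6, 120.5, 128.7 and 162.4 CPM in Kat6aE/E, where 3 of 4 libraries were below every WT library. The fitted log2 difference of Mycn was -0.28 (SE 0.055), the largest of any member in Kat6aE/E. Kat6a-/- embryos had 160.1, 165.1, 156.6 and 151.1 CPM of Mycn, and the fitted log2 difference was -0.10 (SE 0.057). Myc was at 77.59, 69.97, 77.81 and 87.10 CPM in WT, at 69.68, 55.38, 59.45 and 79.36 CPM in Kat6aE/E, and at 75.26, 80.95, 87.11 and 83.44 CPM in Kat6a-/-. Its fitted log2 difference from WT was -0.23 (SE 0.080) in Kat6aE/E and 0.14 (SE 0.081) in Kat6a-/-, and it was called against WT in neither. Within 1 litter, WT replicate 2 and Kat6aE/E replicate 1 had 160.9 and 155.6 CPM of Mycn and 69.97 and 69.68 CPM of Myc. In another, WT replicate 1 and Kat6a-/- replicate 2 had 180.0 and 165.1 CPM of Mycn and 77.59 and 80.95 CPM of Myc. Kat6aE/E replicates 2 and 3, the lowest of that genotype for both genes, came from 1 litter. Directly compared, Kat6aE/E differed from Kat6a-/- by -0.37 for Myc (95% interval -0.54 to -0.19) and by -0.18 for Mycn (-0.30 to -0.05), of which Myc was called and Mycn was not. This comparison rests on the Kat6aE/E libraries used in choosing the genes and is given as a description.

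Eif5a and Oat moved in opposite directions in Kat6aE/E. Eif5a was at 1604, 1467, 1519 and 1548 CPM in WT and at 1299, 1331, 1478 and 1352 CPM in Kat6aE/E, with 3 of 4 below every WT library, and the fitted log2 difference was -0.17 (SE 0.031). In Kat6a-/- it was at 1683, 1489, 1477 and 1583 CPM, with a fitted log2 difference of -0.07 (SE 0.032) against 0.02 unadjusted. Oat was at 101.8, 111.7, 105.9 and 85.92 CPM in WT. It was at 123.2, 118.7, 125.7 and 113.2 CPM in Kat6a-/-, all above WT, as for 5.44% of all genes tested. In Kat6aE/E it was at 119.5, 124.3, 121.1 and 103.1 CPM, with 3 of 4 above WT. No member of Kat6a-/- lay wholly below WT, where 6.49% of all genes did, and none of Kat6aE/E lay wholly above it, where 2.32% did. The fitted log2 differences of Oat were 0.16 (SE 0.039) in Kat6a-/- and 0.19 (SE 0.038) in Kat6aE/E.

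Odc1, Amd1 and Sms, the remaining enzymes, showed smaller differences in these genotypes. Odc1 was at 518.9, 488.7, 497.8 and 557.4 CPM in WT and at 472.5, 485.4, 512.9 and 489.5 CPM in Kat6aE/E, with a fitted log2 difference of -0.06 (95% interval -0.13 to 0.01), and that in Kat6a-/- was 0.00 (-0.07 to 0.08). Amd1 differed by -0.05 in Kat6aE/E and 0.05 in Kat6a-/-, and Sms by 0.03 in each, all with intervals that include 0. The antizyme gene Oaz1 differed by -0.16 in Kat6aE/E (-0.30 to -0.01) and by -0.03 in Kat6a-/- (-0.18 to 0.12, and 0.06 unadjusted). All 4 Kat6aE/E libraries were below all 4 Kat6a-/- libraries for Oaz1 (108.0 to 121.6 against 124.4 to 140.9 CPM), as for 4.24% of all genes, and no member lay wholly above, as 4.1% of genes did.

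Under the call rule, 2 members were called in Kat6a-/- (Srm lower, Oat higher), where 2.64% of all genes were, and 4 in Kat6aE/E (Srm, Mycn and Eif5a lower, Oat higher), where 0.275% were. Kat6aE/E against Kat6a-/- called 1 (Myc lower), beside 1.6% of all genes. These counts follow from how the genes were chosen, so nothing is read from them. In Kat6a-/-, the Srm call was lost on leaving out any 1 of the 4 WT replicates or of Kat6a-/- replicates 1 to 3, and the Oat call without WT replicate 1, 3 or 4 or Kat6a-/- replicate 3. In Kat6aE/E, Srm stayed called on leaving out any 1 library. Srm was chosen with these libraries in view, so the kept call carries no test. The Mycn and Oat calls were lost without WT replicate 1, 3 or 4 or Kat6aE/E replicate 2 or 3, and the Eif5a call without WT replicate 1 or 4. The Myc call against Kat6a-/- was lost without Kat6a-/- replicate 2, 3 or 4 or Kat6aE/E replicate 3. Without surrogate variables no member was called in any of these 3 comparisons, with Srm at -0.26 in Kat6aE/E and -0.08 in Kat6a-/- against WT. Some marker sums of other cell types lay apart from WT in these genotypes. In all 4 Kat6aE/E libraries the primitive erythroid markers were above WT (5260 to 7010 against 3200 to 4940 CPM), as were the erythroid markers (1340 to 1880 against 873 to 1320 CPM), and the mesoderm markers were below it (196 to 259 against 264 to 277 CPM). The markers of lineage-positive blood were also above WT in all 4 Kat6aE/E libraries (23 to 30.4 against 16.9 to 21.5 CPM). In all 4 Kat6a-/- libraries the neural markers were below WT (375 to 491 against 594 to 628 CPM), as were the LSK gate markers (236 to 257 against 263 to 288 CPM). The heart and hepatocyte markers overlapped WT in both genotypes. The part of these cell types in the levels of the members was not tested. The median fitted log2 difference of the 9 was -0.16 in Kat6aE/E and 0.00 in Kat6a-/-, with the median of all genes at 0.00 in both. These medians also follow from how the genes were chosen, so nothing is read from them.

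Reads shared with copies limit some members. Exact copies elsewhere in the genome cover none of the 66-base windows of the Myc, Mycn and Oat transcripts, and 13.7% of those of Eif5a. They cover 40.7% of Sms, 46.8% of Odc1, 71.5% of Amd1 and 79.2% of Oaz1, so the levels of these 4 are uncertain. Amd2, a near copy of Amd1, had 94.07 to 110.8 CPM in WT embryos beside 99.21 to 119.7 CPM for Amd1, and the 2 were low together in double replicate 2 (62.09 and 65.66 CPM).

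**Figure D2:**
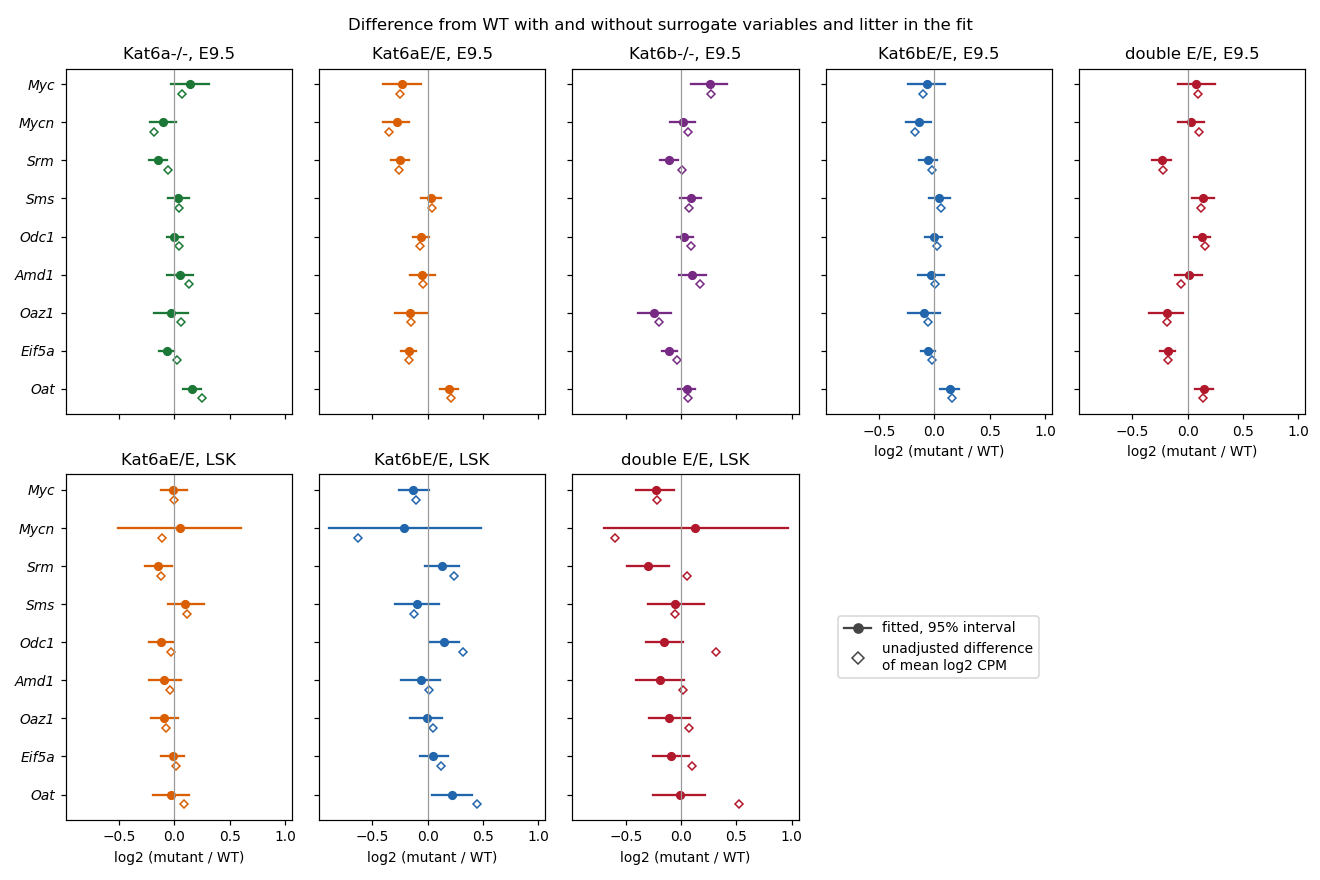
Fitted log2 difference from WT of each of the 9 genes (x axis, log2 scale) by gene (y axis), 1 panel per genotype and tissue. Filled circles are fitted differences with 95% intervals, and open diamonds are unadjusted differences of mean log2 CPM. In the double point mutant, fitted and unadjusted values of Srm lie together at E9.5 (-0.23 and -0.22) and apart in LSK (-0.30 and 0.05).

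The double point mutant asks what mutation of both genes adds. At E9.5, Srm and Eif5a were lower than in WT, and Odc1 and Oat were higher. Srm was at 238.7, 151.1, 230.9 and 216.7 CPM, which overlapped WT, with replicate 2 far below the others. Its fitted log2 difference was -0.23 (SE 0.040, 95% interval -0.32 to -0.15, FDR 0.00479). By the design alone, without the weights given to counts or the litter block, replicate 2 had a leverage of 0.88. It carried -14.3% of the weight in the double mean on that basis. Eif5a was at 1503, 1133, 1504 and 1325 CPM, again with replicate 2 lowest and groups that overlapped (-0.18, SE 0.033, FDR 0.00541). Odc1 was at 588.3, 547.5, 584.8 and 581.7 CPM, with 3 of 4 above every WT library (0.13, SE 0.036, FDR 0.0445). Oat was at 113.1, 103.3, 116.1 and 111.6 CPM, within or just above the WT range (0.15, SE 0.040, FDR 0.0362). No member separated from WT completely, while 3.94% of all genes did so downward and 3.37% upward. The neural markers summed to 485 to 543 CPM in the double libraries, all below the 594 to 628 CPM of WT, and their part in these results was not tested.

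The remaining members of the double point mutant were not called. Sms was at 84.11, 79.55, 93.50 and 84.91 CPM against 75.53 to 81.83 CPM in WT (0.14, FDR 0.101), and Oaz1 at 93.65 to 118.6 CPM (-0.19, FDR 0.146). Myc was at 91.77, 82.30, 75.21 and 83.54 CPM (0.08, 95% interval -0.09 to 0.25) and Mycn at 175.8, 222.1, 172.6 and 200.3 CPM (0.03, -0.09 to 0.15). The comparison called 4 of the 9 members, beside 2.91% of all genes. At an unadjusted p under 0.05 there were 6 members, beside 2581 of all genes (18.2%). It shares the WT libraries with the comparisons used in choosing the genes, so the 4 calls are not independent of that choice. Without double replicate 2, Srm was at -0.18 (FDR 0.0363), Eif5a at -0.16 (FDR 0.0199), Oat at 0.16 (FDR 0.0476) and Odc1 at 0.13 (FDR 0.0808), which left 3 members called. The calls of Srm and Eif5a were kept on leaving out any 1 of the 8 libraries compared. That of Odc1 was lost without any 1 of WT replicates 1 to 3 or of the 4 double replicates (FDR 0.0558 to 0.144). That of Oat was lost without any 1 of the 4 WT replicates or of double replicates 1, 3 and 4 (FDR 0.0605 to 0.169). Without surrogate variables none was called (Srm -0.25, FDR 0.404, and Eif5a -0.20, FDR 0.27), and neither was any gene of the 14183.

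Set against Kat6aE/E, the double point mutant embryos had higher Mycn and Odc1. All 4 double libraries were above all 4 Kat6aE/E libraries for Mycn (172.6 to 222.1 against 120.5 to 162.4 CPM) and for Odc1 (547.5 to 588.3 against 472.5 to 512.9 CPM), as for 2.42% of all genes, and none was wholly lower, as for 2.57%. The fitted log2 differences were 0.31 (SE 0.062) for Mycn and 0.19 (SE 0.038) for Odc1, and Myc was at 0.31 (SE 0.088). Srm (0.01, 95% interval -0.07 to 0.10), Eif5a (-0.01, -0.08 to 0.07) and Oat (-0.04, -0.12 to 0.05) were close to equal in the 2 genotypes. The rule called 2 members beside 0.141% of all genes, a count that rests on Kat6aE/E libraries used for the choice. Without double replicate 2, no member and no gene was called. The Mycn call was also lost without Kat6aE/E replicate 3 or 4 or double replicate 4, and the Odc1 call without Kat6aE/E replicate 1 or 4 or double replicate 4.

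Kat6b genotypes had no member called at E9.5. In Kat6b-/-, Myc was at 96.50, 90.55, 95.29 and 93.24 CPM, all above the 69.97 to 87.10 CPM of WT, as for 3.17% of all genes, and no member lay wholly below WT, as 3.44% of genes did. Its fitted log2 difference was 0.26 (95% interval 0.09 to 0.42, FDR 0.17). Mycn was at 192.3, 200.2, 164.1 and 195.8 CPM (0.02, -0.10 to 0.13), so the 2 family members did not share this pattern. Oaz1 was at 108.9, 122.1, 107.4 and 96.04 CPM (-0.24, FDR 0.146), Eif5a at 1572, 1541, 1393 and 1472 CPM (-0.11, FDR 0.137) and Srm at 253.5, 261.2, 205.5 and 248.0 CPM (-0.11, FDR 0.214, and 0.01 unadjusted). In the single shared litter Srm was 261.2 CPM in Kat6b-/- replicate 2 and 236.2 CPM in WT replicate 3, opposite to the fitted sign. Limma and the edgeR quasi-likelihood test called 0 of the 9 and DESeq2 called 1 (Oaz1, FDR 0.0446). Of all genes, 0.508% were called. At an unadjusted p under 0.05 there were 4 members, beside 1713 of all genes (12.1%). The neural markers summed to 415 to 553 CPM in Kat6b-/-, all below WT, and their part in these levels was not tested. With Xist above 100 CPM as a term, Oaz1 was at -0.33 (FDR 0.0273), and without Kat6b-/- replicate 2, 1 of the Xist-positive libraries, at -0.32 (FDR 0.0377).

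In Kat6bE/E embryos every member's FDR was at least 0.998. Oat was at 125.1, 123.3, 98.53 and 106.0 CPM, with 2 of 4 above WT (0.14, 95% interval 0.05 to 0.22), and Mycn at 142.1, 144.1, 180.1 and 174.4 CPM, with 2 of 4 below WT (-0.14, -0.26 to -0.03). For both genes these were replicates 1 and 2, which came from 1 litter. Srm was at 223.8, 229.1, 221.0 and 277.3 CPM (-0.06, -0.14 to 0.02) and Myc at 63.96 to 86.68 CPM (-0.07, -0.24 to 0.10). Limma, edgeR and DESeq2 each called 0 members, with 2 at an unadjusted p under 0.05, and limma called 0% of all genes, of which 626 (4.41%) had an unadjusted p under 0.05. Unlike in Kat6aE/E, no member lay wholly below WT (1.14% of all genes) or above it (1.17%), but a difference between the 2 point mutants was not tested.

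In LSK cells the members were read in libraries that did not enter their choice, as far as known. Myc was at 483.8, 480.5, 482.9 and 454.7 CPM in WT and at 475.0, 498.0, 463.7 and 465.0 CPM in Kat6aE/E, with a fitted log2 difference of -0.01 (95% interval -0.12 to 0.11). Kat6bE/E had 409.1, 475.8, 476.4 and 404.0 CPM (-0.13, -0.26 to 0.01). In the double point mutant Myc was at 397.5, 420.3, 415.4 and 394.7 CPM, all below WT and below Kat6aE/E. Non-overlap in this direction was found for 3% of all genes against WT and 2.46% against Kat6aE/E. In the other direction no member separated, while 1.53% and 1.55% of genes did. The fitted log2 difference from WT was -0.23 (SE 0.082, 95% interval -0.41 to -0.06, FDR 0.567), and it ran from -0.28 to -0.18 over the 20 alternative settings. Without double replicate 1 it was -0.28 (FDR 0.0241) against WT and -0.29 (FDR 0.0254) against Kat6aE/E, the settings in which Myc was called. Double replicate 1, the double library with many genes detected, also had low Myc (397.5 CPM), and its litter mate Kat6bE/E replicate 1 had 409.1 CPM.

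Srm was called in no LSK comparison of genotypes. WT had 359.1, 365.7, 384.0 and 393.1 CPM, and Kat6aE/E had 328.7, 370.9, 343.8 and 338.2 CPM, with 3 of 4 below WT (-0.15, 95% interval -0.27 to -0.02, FDR 0.303). No member separated Kat6aE/E from WT in LSK, where 2.21% of all genes lay wholly lower and 1.89% wholly higher. In the litter of WT replicates 1 to 3 (359.1 to 384.0 CPM), Kat6aE/E replicate 1 had 328.7 CPM. Kat6bE/E had 406.8, 510.9, 488.8 and 380.7 CPM (0.13, -0.02 to 0.28). The double point mutant had 294.6 CPM in replicate 1 and 461.1, 376.9 and 444.4 CPM in replicates 2 to 4. The fitted log2 difference from WT was -0.30 (-0.49 to -0.11, FDR 0.434), against 0.05 unadjusted and -0.01 in the model without surrogate variables. Over the 12 libraries with at least 14000 genes detected, which leave 1 double library that is assumed to vary like the others, it was -0.31. That library is replicate 1, which also weighed most in the main fit, so the closeness to -0.30 is not an independent check. By the design alone, without the weights given to counts or the litter block, replicate 1 carried 66.2% of the weight in the double mean. Replicates 2 to 4 carried 17.3%, -0.519% and 17.0%.

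**Figure D3:**
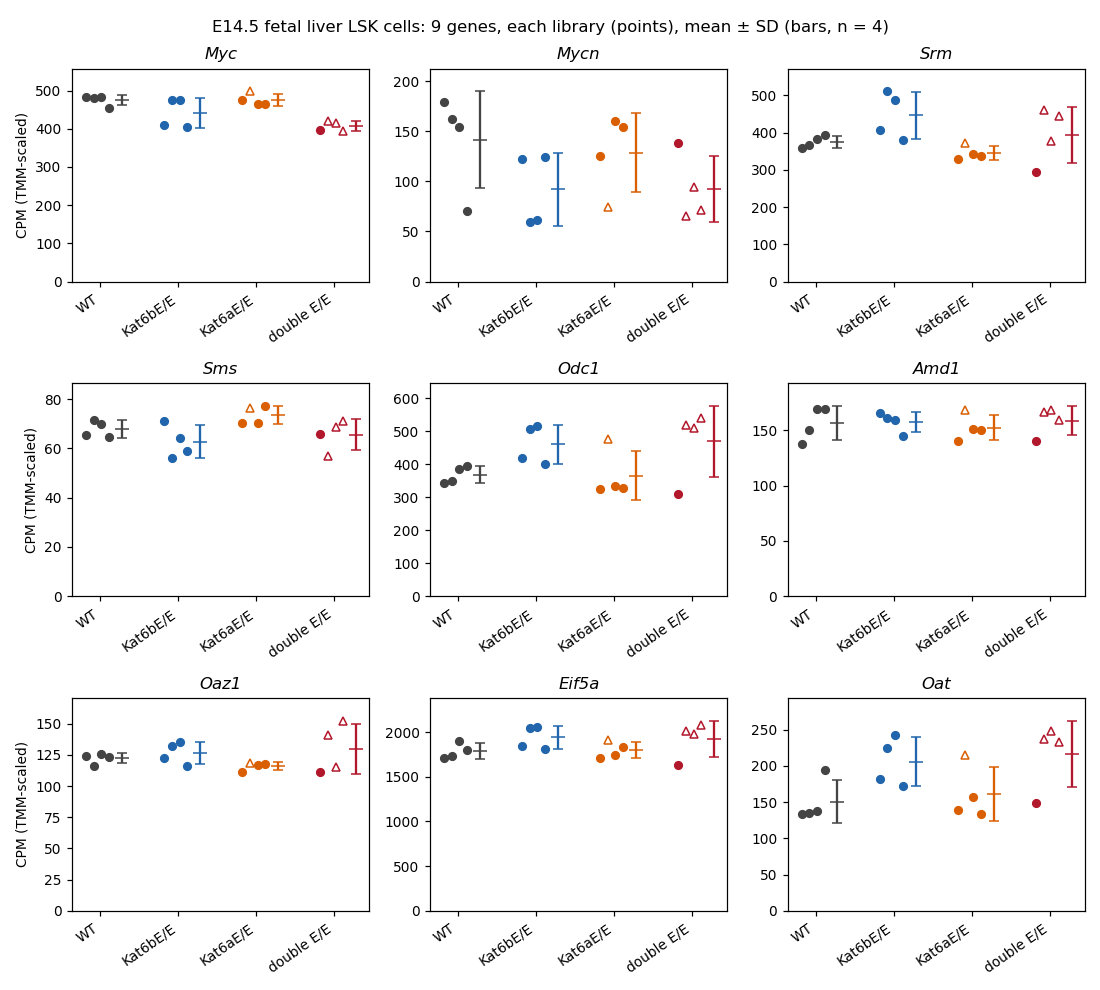
Levels of the 9 genes in E14.5 fetal liver LSK cells, in CPM after TMM scaling (y axis, 1 panel per gene), by genotype (x axis). Points are libraries, open triangles mark the 4 libraries with 12600 to 13683 genes detected, and bars are the mean ± SD of 4 libraries. All 4 open triangles lie above every WT library for Odc1 and Oat, and all 4 double libraries lie below WT for Myc.

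Odc1, Oat and Mycn are given next, library by library. Odc1 was at 342.9, 349.5, 384.4 and 394.7 CPM in WT and at 324.0, 474.8, 332.5 and 326.4 CPM in Kat6aE/E, where replicate 2 is the library with few genes. The double point mutant had 308.9 CPM in replicate 1 and 516.9, 510.1 and 538.8 CPM in replicates 2 to 4. Oat was at 134.1, 135.1, 138.3 and 194.5 CPM in WT, at 139.8, 215.5, 156.6 and 134.0 CPM in Kat6aE/E, and at 149.4, 237.7, 248.6 and 232.5 CPM in the double point mutant. Mycn went the other way, with 179.2, 162.5, 154.0 and 70.50 CPM in WT, 125.8, 74.84, 160.3 and 154.7 CPM in Kat6aE/E and 138.3, 65.05, 94.17 and 71.66 CPM in the double point mutant. WT replicate 4, which has many genes detected, also had high Oat, low Mycn and the highest erythroid sum of the WT libraries (3640 CPM). Kat6bE/E replicates 2 and 3, from 1 litter and also with many genes detected, had Odc1 at 506.1 and 514.5 CPM, Oat at 225.1 and 243.1 CPM and Mycn at 59.36 and 61.04 CPM. The 4 libraries with few genes thus overlapped the other 12 in all 3 members. For Odc1 and Oat the overlap rests on that litter of Kat6bE/E alone. In the double point mutant the fitted log2 differences were -0.15 for Odc1, -0.01 for Oat and 0.13 for Mycn, against 0.32, 0.52 and -0.60 unadjusted, so the sign differed in all 3. Without double replicate 1, Oat was at 0.23 (FDR 0.0366) against WT and Odc1 at 0.32 (FDR 0.0116) against Kat6aE/E, and 2170 and 1998 genes were called in these comparisons in place of 0. The double libraries in these fits came from 1 litter. The erythroid, gate and lineage-positive sums given above moved with the levels of Odc1, Oat and Mycn, and their part in the result was not tested.

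In Kat6bE/E LSK cells, all of whose libraries had many genes detected, Odc1 was at 417.8 CPM in replicate 1, at 401.1 CPM in replicate 4 and between 506.1 and 514.5 CPM in the others, all above the WT libraries, as for 2.2% of all genes while 1.73% lay wholly below and no member did (0.15, 95% interval 0.02 to 0.28, FDR 1, and 0.32 unadjusted). Oat was at 181.5, 225.1, 243.1 and 172.6 CPM, with 2 of 4 above WT (0.22, 95% interval 0.04 to 0.40, FDR 1, and 0.45 unadjusted). Mycn was at 122.9, 59.36, 61.04 and 124.9 CPM (-0.21, -0.89 to 0.48, and -0.63 unadjusted). The erythroid sums were 1690, 4910, 5050 and 4010 CPM in the same replicates, and their part in these levels was not tested.

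Eif5a, Amd1, Sms and Oaz1 were not called between LSK genotypes. Eif5a was at 1705 to 1902 CPM in WT, 1714 to 1908 CPM in Kat6aE/E, 1815 to 2061 CPM in Kat6bE/E and 1629 to 2079 CPM in the double point mutant, and its fitted log2 difference in the double was -0.09 (95% interval -0.25 to 0.07), against 0.10 unadjusted and 0.07 without surrogate variables. In the double point mutant the fitted difference of Amd1 was -0.19 (-0.41 to 0.03, and 0.02 unadjusted) and that of Sms -0.05 (-0.30 to 0.21, and -0.05 unadjusted). That of Oaz1 was -0.11 (-0.29 to 0.08), against 0.07 unadjusted and 0.06 without surrogate variables. The sign of Eif5a and Oaz1 thus turned against both values. That of Amd1 turned against the unadjusted value but not without surrogate variables (-0.06). Over the LSK comparisons, limma, edgeR and DESeq2 each called 0 members. In Kat6aE/E against WT, 2 members had an unadjusted p under 0.05 (Srm and Odc1) and 1.36% of all genes were called. In Kat6bE/E it was 2 members (Odc1 and Oat) and 0%, in the double point mutant 2 (Srm and Myc) and 0%, and in the double against Kat6aE/E 1 (Myc) and 0%. Of all genes, 1639 (12.5%), 364 (2.78%), 896 (6.85%) and 197 (1.51%) had an unadjusted p under 0.05 in these 4 comparisons. On simulated data for Kat6aE/E against WT, 18% of genes changed by a log2 difference of 0.5 were recovered in LSK and 64% at E9.5. The changed genes were drawn at random, and the simulated counts held no litter effect. They also held no other factor shared between libraries, such as the few-gene group, although 4 surrogate variables were fitted. The shares recovered may therefore not hold for the real libraries. The member differences in Kat6aE/E at E9.5 were smaller than 0.5, so recovery of the members in LSK was not tested.

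The WT libraries of both tissues gave the contrast between LSK cells and the whole embryo. As far as known, this contrast did not enter the choice of the genes, but its E9.5 WT libraries entered comparisons that did. Myc was 5.95-fold higher in LSK (fitted log2 difference 2.57, SE 0.067, FDR 4.83e-10). Its level rose from 69.97 to 87.10 CPM in the 4 embryos to 454.7 to 483.8 CPM in the 4 LSK libraries, a wide gap. Mycn did not follow, at 160.9 to 198.9 CPM in embryos and 70.50 to 179.2 CPM in LSK (-0.69, SE 0.30, FDR 0.0658), and its LSK values spread over more than the embryo values. In CPM per kilobase, Myc was above Mycn in LSK and below it in embryos.

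Of the polyamine genes, Srm (0.65, FDR 4.36e-06), Amd1 (0.50, FDR 0.00107), Oat (0.67, FDR 0.00194) and Eif5a (0.22, FDR 0.00319) were higher in LSK. Odc1, which opens the pathway, was lower (-0.47, SE 0.070, FDR 9.9e-05), with 342.9 to 394.7 CPM in LSK against 488.7 to 557.4 CPM in embryos. Sms was lower too (-0.24, FDR 0.00787), and Oaz1 differed by -0.02 (95% interval -0.17 to 0.13, FDR 0.806). The comparison called 7 of the 9 members beside 77.9% of all genes, so being called says little about these genes, and Myc had the largest fitted difference of the 9. In order of level in LSK, Eif5a (885.5 ± 43.34 CPM per kilobase, SD, n = 4) and Srm (282.7 ± 11.89) were highest, followed by Myc (198.2 ± 5.807), Odc1 (128.1 ± 8.887) and Oaz1 (113.9 ± 3.991). Oat (69.84 ± 13.63), Mycn (54.52 ± 18.68) and Amd1 (48.81 ± 4.801) overlapped, and Sms was lowest at 17.88 ± 0.9195. Tissue, stage, cell makeup and RNA input differ together here and cannot be told apart.

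**Figure D4:**
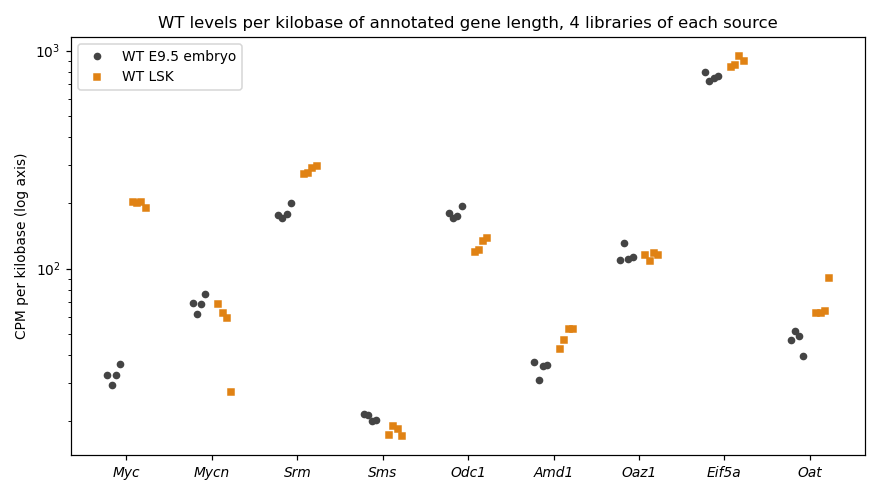
Level of each of the 9 genes in WT whole E9.5 embryos and WT LSK cells (x axis by gene, y axis in CPM per kilobase of gene length, log scale). Points are libraries, 4 for each tissue. Myc has the widest gap between the tissues, from a mean of 32.56 in embryos to 198.2 in LSK.

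Other genes of these pathways were counted by lists. Of 11 MYC network partners (10 tested in LSK), none was called in any comparison between genotypes, at E9.5 or in LSK. Of 20 other polyamine and hypusine genes (19 tested in LSK), 1 was called, in LSK Kat6aE/E, where 1.36% of all genes were. This was Slc18b1, a polyamine transporter gene, at a low level of 1.62 ± 1.10 CPM against 3.30 ± 0.802 CPM in WT (SD, n = 4), with a fitted log2 difference of -1.50 (SE 0.31, FDR 0.0276). Of 7 ornithine and proline genes tested, none was called. Of 20 nucleolar and metabolic genes widely described as MYC targets, Nolc1 was called lower in Kat6a-/- (-0.18), Npm1 higher in Kat6b-/- (0.16, FDR 0.0203) and in the double point mutant at E9.5 (0.15, FDR 0.0124), and Bop1 lower in the double (-0.17, FDR 0.0207). Of all genes, 2.64% were called in Kat6a-/-, 0.508% in Kat6b-/- and 2.91% in the double at E9.5. In Kat6aE/E embryos 0 of the 20 were called, and the list's median log2 difference was -0.06 beside 0.00 for all genes. At an unadjusted p under 0.05, 6 of the 20 were lower and none higher in Kat6aE/E, beside 10% of all genes in either direction (1421). In the other E9.5 comparisons with WT, the counts at this level were 5 lower and 0 higher in Kat6a-/-, 5 higher and 4 lower in the double point mutant, 5 higher and 2 lower in Kat6b-/-, and 2 in each direction in Kat6bE/E. The lists were chosen with earlier results of these data known, so nothing is read from these counts. The share of all genes is for both directions together.

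Between the WT tissues, the lists changed in both directions, as most genes did. Of the MYC network partners 6 of 11 were called higher in LSK and 2 lower, and of the other polyamine and hypusine genes 9 of 19 tested were called higher and 7 lower. Of the ornithine and proline genes 4 of 7 were higher and 1 lower, and of the MYC target list 12 of 20 were higher and 3 lower. Some genes are named after their values were seen. Max, the partner of MYC, was at a fitted log2 difference of 0.69 and Mycl, another MYC family gene, at -5.19. The hypusine enzymes Dohh (0.46) and Dhps (0.19) were both higher, as was Sat1 (1.47), which acetylates spermidine and spermine. Arg1, which makes ornithine, was at 0.3591 ± 0.08406 CPM in LSK and 56.79 ± 6.468 CPM in embryos (SD, n = 4).

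As a description, the genes whose log2 CPM ran most closely with Srm over the 24 E9.5 libraries were Hmga1b (Pearson r 0.94), Fkbp1a (0.93) and Rrp9 (0.92), with Eif5a at 0.86 and Myc at 0.32. Those nearest to Myc were Fbxw7 (0.84), Zfp599 (0.84) and Rfwd3 (0.83), with Mycn at 0.77. Over the 16 LSK libraries, Srm ran with Slc19a1 (0.95), Mrpl12 (0.93) and Ext1 (0.93), while its r with Myc was 0.01 and with Mycn -0.77. Myc ran with Nsg1 (0.85), Cfl1 (0.83) and Edem2 (0.82). The libraries share genotypes, litters and the few-gene group, so these values carry no test.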

How the data were processed

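The unit is the deposited count of read pairs per gene. The authors aligned paired-end, unstranded reads to mm39, assigned them with featureCounts to RefSeq genes and deposited the raw counts with gene lengths (the other deposited column, in bases), 1 table for each of 40 libraries. Tool versions are not given in the sources used here. Each table lists 26411 genes. Gene types were found for 26359, and the other 52 were left out.

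The study's model was followed: 21030 protein-coding genes less Y-linked ones, filterByExpr, TMM, 4 surrogate variables, and voomLmFit (litter entered as a random effect, empirical Bayes with the robust option), with E9.5 and LSK fitted apart (R 4.3.3, limma 3.58.1, edgeR 4.0.16). The litter correlation was 0.107 at E9.5 (17 litters) and 0.331 in LSK (9 litters). A joint model of the 8 WT libraries without surrogate variables (14462 genes, litter correlation 0.424) compared the tissues. Elsewhere CPM was scaled by TMM within each tissue. Intervals are 95%. Calls are FDR under 0.05 over all genes tested.

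The members and gene lists were chosen with earlier results of these data known. All 9 members are named in every comparison, list genes where called between genotypes, and the 3 genes most alike to Srm and to Myc. Libraries are single embryos or livers by their labels, some from 1 litter. In every pair of libraries at least 71.2% of genes differed in count, so none was deposited in duplicate. Of the litters, 3 at E9.5 and 2 in LSK hold more than 1 genotype (6 libraries each). Libraries with the same replicate number did not deviate together (median r 0.05 over 60 pairs at E9.5 and 0.00 over 24 in LSK), so the numbers do not pair them.

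Alternatives were 0 or 6 surrogate variables, DESeq2 size factors, no low-count filter, all gene types, edgeR quasi-likelihood tests, DESeq2 1.42.0, no litter block, a replicate block and each library left out. Added after the data were seen were a term for Xist above 100 CPM and LSK libraries with at least 14000 genes detected, with 4 or 0 surrogate variables. The model was tested on simulated data. Exact copies were searched in GRCm39 with 66-base windows. Figures were drawn with matplotlib 3.10.9.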

Additional observations from a re-analysis of the deposited data

Results flagged for a closer look

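Of 90 groups of 4 libraries (9 genes in 10 genotypes), 11 had 1 library far from the other 3, by Dixon's ratio (the gap to the nearest other library divided by the group's range) at the 95% level, where chance gives about 1 in 20. The ratio is the first number after each. At E9.5, double replicate 2 was lowest in Amd1 (0.941, 65.66 CPM against 124.8 to 128.5) and in Odc1 (0.838, 547.5 CPM against 581.7 to 588.3). Oaz1 had a high library in 3 genotypes, WT replicate 2 (0.834, 140.5 CPM against 117.6 to 121.4), Kat6a-/- replicate 1 (0.891, 140.9 CPM against 124.4 to 126.2) and Kat6aE/E replicate 3 (0.846, 121.6 CPM against 108.0 to 110.1), and 79.2% of its transcript windows have a copy elsewhere. Srm was high in Kat6bE/E replicate 4 (0.856, 277.3 CPM against 221.0 to 229.1).

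In LSK, double replicate 1 was lowest in Odc1 (0.875, 308.9 CPM against 510.1 to 538.8) and in Oat (0.838, 149.4 CPM against 232.5 to 248.6), and it is the double library with many genes detected. Kat6aE/E replicate 2, the Kat6aE/E library with few genes detected, was highest in Odc1 (0.944, 474.8 CPM against 324.0 to 332.5). WT replicate 4 was highest in Oat (0.93, 194.5 CPM against 134.1 to 138.3) and lowest in Myc (0.887, 454.7 CPM against 480.5 to 483.8).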

How the results depend on the processing

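With 0 surrogate variables, 0 members were called in Kat6a-/-, Kat6aE/E and the double point mutant against WT, in Kat6aE/E against Kat6a-/- and in the double against Kat6aE/E at E9.5, in place of 2, 4, 4, 1 and 2, and the genes called fell to 111, 14, 0, 61 and 0, while Srm kept its direction in each genotype (-0.08, -0.26 and -0.25 against WT). In Kat6a-/-, 1 member was called with no low-count filter, with all gene types, with the replicate block and with the Xist term. In Kat6aE/E, the Oat call was lost with the replicate block and the Mycn call with the Xist term. In the double point mutant at E9.5, the Oat call was lost with the replicate block (FDR 0.106), and Oaz1 was called with the Xist term (-0.21, FDR 0.0495). In Kat6b-/-, 1 was called with DESeq2 and with the Xist term (Oaz1), and 2 with the replicate block (Myc 0.31, FDR 0.027, and Oaz1 -0.25, FDR 0.0487), which also gave 1 more member, Mycn, between the WT tissues (FDR 0.0476). In Kat6aE/E against Kat6a-/-, 2 were called with 6 surrogate variables and with no filter, and in the double against Kat6aE/E 1 with the Xist term. Replicate numbers do not pair these libraries, so the block is a check only.

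With 1 library left out, the members called ran from 0 to 2 in Kat6a-/-, 0 to 1 in Kat6b-/-, 1 to 4 in Kat6aE/E, 0 in Kat6bE/E, 2 to 3 in the double point mutant, 0 to 2 in Kat6aE/E against Kat6a-/- and in the double against Kat6aE/E at E9.5, 0 to 2 in both LSK double comparisons, 0 in the other LSK comparisons and 7 between the WT tissues. Without double replicate 1 in LSK, 2 values reversed and passed the threshold, Oat against WT (0.227, with a range of -0.0113 to 0.227 over the omissions) and Odc1 against Kat6aE/E (0.323, with a range of -0.0534 to 0.323). The double libraries left came from 1 litter, and the cause was not tested. Of 1989 member values over all settings, 122 had the other sign from the main value, none of them a call of the main model. Genes called over the settings other than leaving out a library ranged from 111 to 631 in Kat6a-/-, 0 to 200 in Kat6b-/-, 14 to 122 in Kat6aE/E, 0 to 811 in the double at E9.5, 61 to 491 in Kat6aE/E against Kat6a-/-, 0 to 87 in the double against Kat6aE/E, 3 to 303, 0 to 61 and 0 to 96 in LSK Kat6aE/E, Kat6bE/E and double, and 10906 to 12246 between the WT tissues. Counts per library were at least 8401990, and 4 libraries per genotype and the few-gene LSK libraries limit the precision.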
